A study of Mus musculus with 10 samples.

Results

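The genes described here are 10 members of the BCL2 family, which set whether a stressed cell survives or dies by apoptosis: the guardians Bcl2, Bcl2l1 and Mcl1, the BH3-only genes Bcl2l11, Bbc3, Pmaip1, Bid and Bmf, and the effectors Bax and Bak1. They were taken by gene symbol, and all 10 have a row in both tables of expression values, which hold 17658 and 16719 named genes. The cells were ASZ001, a cell line grown from a mouse basal cell carcinoma (BCC). The line resists inhibitors of Smoothened, a protein of the Hedgehog pathway. Every group is thus a state of 1 line and not of separate tumors. In the SB431542 experiment, 3 cultures received DMSO, the solvent, and 3 received 10 uM SB431542, which blocks ALK5, the type I receptor for TGF-beta. In the T-5224 experiment, 2 cultures received DMSO and 2 received 20 uM T-5224, an inhibitor of AP-1, the transcription factor built from Fos and Jun proteins. Treatment lasted 24 h in all groups, and all cells, controls included, were moved at treatment from 2% to 0.2% chelated serum with 0.05 mM calcium chloride. Expression is given as RPKM, the reads of a gene scaled to its length and to the size of the library.

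In mitochondrial apoptosis, the effector proteins BAX and BAK open pores in the outer mitochondrial membrane, and cytochrome c escapes and switches on caspases. Guardian proteins hold effectors and BH3-only proteins in check, while BH3-only proteins are sensors that are made or activated under stress and that bind guardians, effectors or both. MCL1 is a short-lived protein and is known as a main guardian of keratinocytes, and BMF and BIM (made by Bcl2l11) are known for the death of epithelial cells that lose their attachment. These proteins are controlled at many steps after transcription, and RNA levels say nothing of protein, of splice forms of Bcl2l1, Mcl1 or Bcl2l11, or of cell death itself.

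The promoter stretches of the 3 genes with the largest falls under T-5224 (Bmf, Mcl1 and Bcl2l11) and of the guardian that was higher with both inhibitors (Bcl2) are shown for orientation. Each ends at the base before the annotated start of transcription, upstream of the first exon, and is read 5′ to 3′ on the strand of its gene. The letters are from RefSeq and were matched to the mm9 (NCBIM37) genome. Bmf is at chr2:118375424-118375672 on the minus strand, Mcl1 at chr3:95462393-95462642 on the plus strand, Bcl2l11 at chr2:127951524-127951773 on the plus strand and Bcl2 at chr1:108610868-108611117 on the minus strand. Capitals mark TGACG, the core letters of a site for ATF and CREB factors, in Bmf and Bcl2, and the reverse complement of TGTTTAC, a letter pattern of forkhead (FOXO) factors, in Bcl2l11.
Bmf: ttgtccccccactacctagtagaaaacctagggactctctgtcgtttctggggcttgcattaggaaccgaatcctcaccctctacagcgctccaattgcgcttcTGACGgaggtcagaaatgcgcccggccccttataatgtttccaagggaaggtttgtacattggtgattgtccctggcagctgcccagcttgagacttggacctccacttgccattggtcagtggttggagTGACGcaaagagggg
Mcl1: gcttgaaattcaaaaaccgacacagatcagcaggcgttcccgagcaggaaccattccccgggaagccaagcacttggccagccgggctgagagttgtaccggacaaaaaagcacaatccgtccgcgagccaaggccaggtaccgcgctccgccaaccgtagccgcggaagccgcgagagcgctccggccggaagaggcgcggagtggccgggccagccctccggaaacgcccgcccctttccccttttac
Bcl2l11: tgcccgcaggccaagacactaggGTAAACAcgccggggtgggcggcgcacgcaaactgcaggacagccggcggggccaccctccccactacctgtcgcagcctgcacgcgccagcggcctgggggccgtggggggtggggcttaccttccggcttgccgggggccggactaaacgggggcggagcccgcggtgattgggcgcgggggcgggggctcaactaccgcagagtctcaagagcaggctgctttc
Bcl2: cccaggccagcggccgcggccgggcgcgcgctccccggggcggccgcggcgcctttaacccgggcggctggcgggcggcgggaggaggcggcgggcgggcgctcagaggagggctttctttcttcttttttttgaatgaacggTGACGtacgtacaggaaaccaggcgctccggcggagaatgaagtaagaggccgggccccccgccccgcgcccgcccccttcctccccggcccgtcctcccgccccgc

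The stretches of Bcl2l11 and Bcl2 were rich in G and C (72.0% and 74.8%), that of Mcl1 held 64.4% and that of Bmf 53.8%, beside a median of 52.4% over 32851 mouse promoter windows. Windows of 9 members were searched, 16 in all since several genes have more than 1 start, and Pmaip1 was left out. The AP-1 pattern TGANTCA was found in 0 of these windows, against 7.81% of all windows. Both strands were searched, from 250 bases before each start into the beginning of the transcript. The full cAMP response pattern TGACGTCA was also found in 0 (1.79% of all windows), as was the CArG box of serum response factor (1.63%). TGACG, which every TGACGTCA contains, was in 4 of the 16 windows, belonging to Bbc3, Bcl2, Bmf and Mcl1 (20.8% of all windows), and in Mcl1 it lay past the start and so outside the stretch printed. TGTTTAC was in 2, belonging to Bbc3 and Bcl2l11 (3.65%). These are letter matches in short windows and say nothing of binding or of distant enhancers.

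The libraries held between 32.0M and 51.5M reads, as read back from the steps between low values of short genes. The first DMSO library of the SB431542 experiment stood apart from the other 2 of its group (SD of its log2 differences from their mean 0.272, against 0.161 and 0.190). Both treatment checks passed the test with both inhibitors in limma. Pmepa1, a TGF-beta target, fell by 3.62 on the log2 scale with SB431542 and by 1.35 with T-5224, and the Hedgehog target Gli1 fell by 0.60 and by 1.66. All 8 keratinocyte markers were present, led by Krt5 and Krt14, and their summed level was 9498 to 9678 RPKM with DMSO and 6760 to 7226 with SB431542, then 12061 to 12717 with DMSO and 1815 to 1875 with T-5224. With SB431542 2 of the 8 were lower and 2 higher, beside 10.0% and 10.2% of all genes tested. With T-5224 7 were lower and 1, Epcam, higher, beside 39.4% and 40.3% of all genes tested. Summed fibroblast markers, nearly all Dcn, were at 2.45 to 2.64 RPKM with DMSO and 3.69 to 4.14 with SB431542, and at 2.54 to 2.58 with DMSO and 2.65 to 2.84 with T-5224. Leukocyte markers summed to 7.03 to 10.5 RPKM in the SB431542 experiment, and rose from 16.7 to 18.6 with DMSO to 32.7 to 33.2 with T-5224, nearly all Cd68, while Ptprc, which defines leukocytes, was at or near 0. Endothelial markers, nearly all Pecam1, summed to 5.32 to 6.76 with DMSO and 2.757 to 2.999 with SB431542, and to 11.1 to 12.1 with DMSO and 4.29 to 4.80 with T-5224. Fewer cells of a kind and less RNA per cell cannot be told apart in such bulk libraries, and the part of the marker changes in the results was not tested.

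The question asked of the family was which members respond to each inhibitor against its own DMSO libraries. With SB431542, 9 members passed the filter of a mean RPKM of at least 1, and 1 was lower (Mcl1) and 1 higher (Bcl2) at an adjusted p under 0.05 in limma, beside 10.0% of the 10842 genes tested that were lower and 10.2% that were higher. None of the 9 changed over 2-fold in either direction, with or without an adjusted p, beside 0.581% of all genes that were down and 0.231% that were up by that much. With T-5224, 4 of 10 members were lower (Mcl1, Bcl2l11, Bmf and Bak1) and 4 higher (Bcl2, Pmaip1, Bid and Bax), beside 39.4% and 40.3% of the 10809 genes tested, so the share of members that moved was near that of genes at large. Over 2-fold, 2 of 10 members were down (Bmf and Mcl1), beside 10.6% of all genes, and 0 of 10 were up, with or without an adjusted p, beside 10.4%. Bmf passed the filter through its DMSO libraries alone, so its part in these counts is description. Among genes with a mean of at least 1 RPKM in both groups, Mcl1 was the only member down over 2-fold, beside 891 of 10208 genes.

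**Figure D1:**
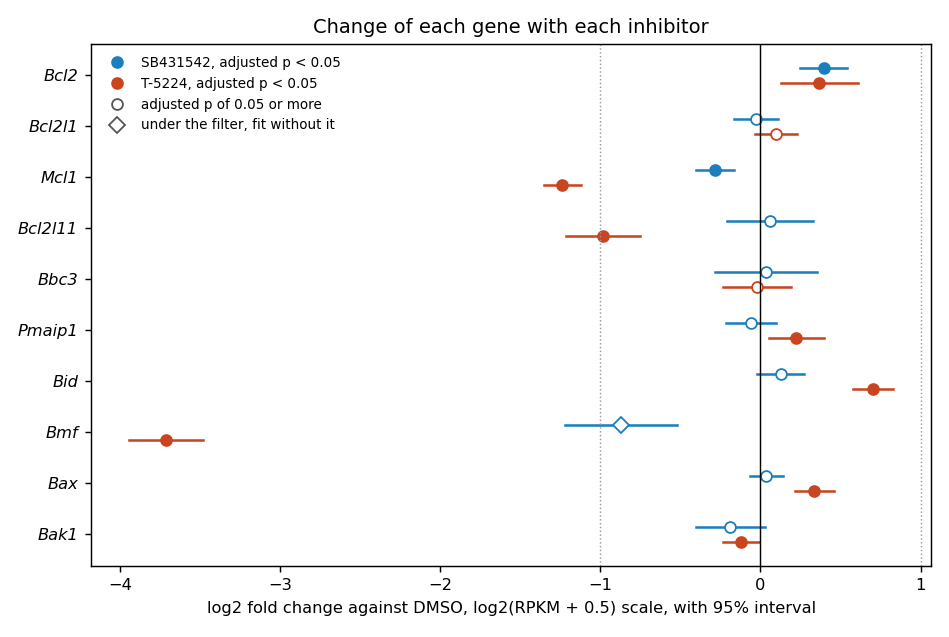
Log2 fold change of each of the 10 genes with each inhibitor against its own DMSO libraries, on the log2(RPKM + 0.5) scale, with 95% intervals; filled points have an adjusted p under 0.05 in limma, open circles do not, and the diamond is Bmf with SB431542, which lay under the filter and was fitted without it. Dotted lines mark 2-fold. Bmf with T-5224 lies far to the left at -3.71, Mcl1 and Bcl2l11 with T-5224 near the 2-fold line, and all SB431542 points between -0.87 and 0.40.

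Among the guardians, Mcl1 was lower with both inhibitors and Bcl2 higher with both, while Bcl2l1 did not pass the test with either. Mcl1 (chromosome 3, 95462643 to 95467099) encodes the guardian whose protein and messenger both turn over fast. Its 2 DMSO libraries of the T-5224 experiment read 69.2 and 68.8 RPKM, and both T-5224 libraries read 29.0. The groups lay far apart and hardly varied within themselves, and the mean fell by 58.0%. The log2 fold change was -1.24 (SE 0.05, 95% interval -1.36 to -1.12, limma adjusted p = 2.01e-09), which ranked 795 from the lowest among the 10809 genes tested. In the SB431542 experiment, Mcl1 read 52.8, 54.3 and 52.2 RPKM with DMSO and 45.3, 42.9 and 42.1 with SB431542. Every treated library was below every control, by 18.1% of the mean, a log2 fold change of -0.29 (SE 0.05, 95% interval -0.41 to -0.17, limma adjusted p = 0.0100). That call was lost without SB431542 replicate 2 or replicate 3 (adjusted p = 0.0589 and 0.0586, with a range of 0.00129 to 0.0589 over all alternatives), while the fold change stayed between -0.32 and -0.26.

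Bcl2 (chromosome 1, 108434755 to 108610851), the founding guardian, was a low transcript in both experiments. With DMSO it read 5.04, 5.21 and 5.10 RPKM, and with SB431542 it read 7.28, 6.62 and 6.78. All 3 treated libraries were above all controls, and the mean rose by 34.7% (log2 fold change 0.40, SE 0.06, 95% interval 0.25 to 0.54, limma adjusted p = 0.00654). In the T-5224 experiment the DMSO libraries read 2.24 and 1.94 RPKM and the T-5224 libraries 2.80 and 2.88. Again both treated libraries were above both controls, and the mean rose by 35.8% (log2 fold change 0.37, SE 0.11, 95% interval 0.13 to 0.61, limma adjusted p = 0.00889). Without T-5224 replicate 2 the call was lost (adjusted p = 0.0662, with a range of 0.000947 to 0.0662 over all alternatives).

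Bcl2l1 (chromosome 2, 152593052 to 152657464), which makes BCL-XL, read 21.4, 22.4 and 23.0 RPKM with DMSO and 21.3, 23.0 and 21.0 with SB431542, so the groups overlapped. The log2 fold change of -0.03 had a 95% interval of -0.17 to 0.11 (limma adjusted p = 0.741). With T-5224 it read 34.3 and 32.1 RPKM against 30.5 and 31.5 with DMSO, both treated libraries above both controls by a small margin. The log2 fold change of 0.10 did not pass the test (95% interval -0.04 to 0.23, limma adjusted p = 0.160). Over all alternatives the fold change ranged from 0.000656 to 0.14.

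The make-up of the pool of Mcl1, Bcl2l1 and Bcl2, the guardians among the members, changed with T-5224. Mcl1 held 67.6% ± 0.400 (SD, n = 2) of the summed guardian RPKM with DMSO and 44.6% ± 1.01 with T-5224, and Bcl2l1 went from 30.4% ± 0.608 to 51.0% ± 1.20. The summed guardian RPKM was 102 ± 0.183 with DMSO and 65.0 ± 1.51 with T-5224. The ratio of Mcl1 to Bcl2l1 thus passed from 2.23 ± 0.0577 to 0.874 ± 0.0403, and Bcl2l1 was the highest guardian in both T-5224 libraries. With SB431542 the same shift was smaller: Mcl1 held 66.0% ± 0.844 (SD, n = 3) with DMSO and 60.2% ± 1.07 with the inhibitor, and the guardian sum was 80.4 ± 1.36 and 72.1 ± 2.07 RPKM. Bcl2 held 6.36% ± 0.00300 with DMSO and 9.56% ± 0.386 with SB431542, and 2.05% ± 0.209 with DMSO and 4.37% ± 0.198 with T-5224. These shares are given as description, and the ranges of the groups did not overlap in any of them.

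**Figure D2:**
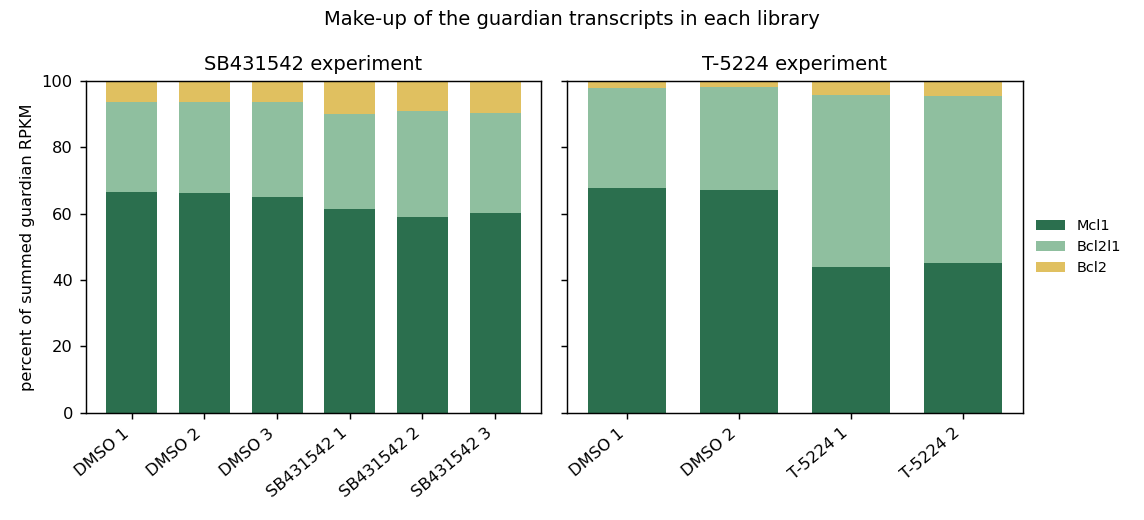
Stacked bars of the share of summed guardian RPKM held by Mcl1, Bcl2l1 and Bcl2 in each library (percent, 1 bar a library). Mcl1 fills 65.0% to 66.6% of the DMSO bars and 59.1% to 61.3% of the SB431542 bars in the left panel, and 67.3% to 67.9% of the DMSO bars and 43.9% to 45.3% of the T-5224 bars in the right panel.

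Of the BH3-only genes, Bmf and Bcl2l11 fell with T-5224, Bid and Pmaip1 rose, and Bbc3 did not pass the test. With SB431542 none of the 4 that could be tested passed it, beside 10.0% of all genes lower and 10.2% higher. At an unadjusted p under 0.05 in limma 0 of the 4 passed as well, beside 3912 of the 10842 genes tested. Bmf (chromosome 2, 118354493 to 118375423), whose protein binds dynein light chain and is held on the cytoskeleton in attached cells, moved most of all members. Its DMSO libraries read 10.2 and 11.1 RPKM and its T-5224 libraries 0.340 and 0.364. The T-5224 levels rest on about 81 and 84 reads, and the DMSO levels on about 1522 and 2037, so counting error was 11.1% and 10.9% against 2.6% and 2.2%. The mean was 30.4-fold lower, and the log2 fold change of -3.71 (SE 0.10, 95% interval -3.95 to -3.48, limma adjusted p = 6.61e-11) ranked 25 from the lowest among the 10809 genes tested. Bmf passed the filter through its DMSO libraries alone, so its rank and adjusted p among the genes tested are given as description. Without the filter its log2 fold change was also -3.71 (limma adjusted p = 4.39e-05).

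Bmf was also lower with SB431542. It read 1.16, 1.35 and 1.81 RPKM with DMSO and 0.670, 0.528 and 0.467 with SB431542. All 3 treated libraries lay below all 3 controls, and the mean of 0.555 ± 0.104 RPKM (SD, n = 3) was 61.5% under the 1.44 ± 0.333 RPKM with DMSO. Its mean over all 6 libraries, 0.9992 RPKM, lay just under the filter, and it was therefore not tested with the other genes. Fitted without the filter, its log2 fold change was -0.87 (SE 0.14, 95% interval -1.22 to -0.52, limma adjusted p = 0.0186). The DMSO level of Bmf differed between the experiments, 1.44 against 10.7 ± 0.631 RPKM, and this was not tested, because the tables were normalized separately and may not have been made with the same gene models: Cycs read 83.9 RPKM with DMSO in this table and 1.79 in the other.

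Bcl2l11 (chromosome 2, 127951774 to 127988283), which makes BIM, read 4.20 and 4.27 RPKM with DMSO and 2.03 and 1.76 with T-5224. Both treated libraries were at less than the level of either control, the mean fell by 55.2%, and the log2 fold change was -0.98 (SE 0.10, 95% interval -1.22 to -0.75, limma adjusted p = 4.27e-06). It missed the 2-fold limit on the log2(RPKM + 0.5) scale, although the means differed 2.23-fold, and passed it with a pseudocount of 0.1 (-1.12) and without T-5224 replicate 1 (-1.07). Since Mcl1 fell by nearly the same proportion, the ratio of Bcl2l11 to Mcl1 was 0.0614 ± 0.00101 with DMSO and 0.0654 ± 0.00650 with T-5224, and its ranges overlapped. With SB431542, Bcl2l11 read 2.17, 1.86 and 1.62 RPKM against 1.59, 1.76 and 1.99 with DMSO, in overlapping groups. Its log2 fold change there was 0.06 (95% interval -0.21 to 0.33, limma adjusted p = 0.730).

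Bid (chromosome 6, 120841948 to 120866871) encodes the BH3-only protein that caspase-8 cuts, and so ties death receptors to mitochondria. With DMSO it read 27.2 and 28.6 RPKM and with T-5224 it read 46.2 and 45.3. The treated libraries were well above the controls, and the mean rose by 64.0%. This was the largest rise among the members in that experiment, with a log2 fold change of 0.70 (SE 0.06, 95% interval 0.58 to 0.83, limma adjusted p = 4.04e-07). In the SB431542 experiment, Bid read 25.1, 27.6 and 27.7 RPKM with DMSO and 28.5, 31.0 and 28.4 with the inhibitor. The groups did not overlap, but the log2 fold change of 0.13 did not pass the test (95% interval -0.02 to 0.27, limma adjusted p = 0.191).

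The remaining BH3-only genes, Pmaip1 and Bbc3, make NOXA and PUMA, and both are known targets of p53 and of stress factors such as ATF4. Pmaip1 (chromosome 18, 66618258 to 66625204) read 10.2 and 9.61 RPKM with DMSO and 12.3 and 11.0 with T-5224, a rise of 17.6% in which the treated libraries lay above the controls. The log2 fold change was 0.22 (SE 0.08, 95% interval 0.05 to 0.39, limma adjusted p = 0.0210). The call was lost without DMSO replicate 2 (0.18, adjusted p = 0.0552), without T-5224 replicate 1 (0.15, adjusted p = 0.206) and without the filter on low values (adjusted p = 0.0581), the range over all alternatives being 0.00519 to 0.206. With SB431542 it read 11.6, 13.0 and 13.1 RPKM against 13.4, 13.6 and 12.4 with DMSO, and the log2 fold change of -0.06 had a 95% interval of -0.22 to 0.10 (limma adjusted p = 0.555).

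Bbc3 (chromosome 7, 16894965 to 16903554) read 3.27 and 3.29 RPKM with DMSO and 3.27 and 3.17 with T-5224. The groups overlapped, and the log2 fold change of -0.02 lay within a 95% interval of -0.23 to 0.19 (limma adjusted p = 0.832). With SB431542 the levels were 1.10, 1.33 and 0.835 RPKM, against 0.916, 1.13 and 1.08 with DMSO. The groups again overlapped (log2 fold change 0.03, 95% interval -0.28 to 0.35, limma adjusted p = 0.878). The first DMSO value rests on about 60 reads, a counting error of 12.9%.

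The pool of the 5 BH3-only members was somewhat larger with T-5224, at 62.9 ± 1.76 RPKM against 56.0 ± 1.22 with DMSO (SD, n = 2). The gain of Bid was larger in RPKM than the loss of Bmf and Bcl2l11 together. The pool leaves out the BH3-only gene Bad, which fell by more than the pool gained, from 71.0 ± 2.17 to 51.2 ± 1.21 RPKM. Bid held 49.8% ± 0.587 of the pool of members with DMSO and 72.8% ± 1.04 with T-5224, whereas Bmf went from 19.1% ± 0.711 to 0.560% ± 0.0427 and Bcl2l11 from 7.56% ± 0.0714 to 3.01% ± 0.217. With SB431542 the pool read 45.4 ± 1.99 RPKM against 44.2 ± 1.75 with DMSO (SD, n = 3), in overlapping ranges, and Bmf held 1.23% ± 0.255 against 3.26% ± 0.677. RPKM sums weigh each gene by its messenger only, and the pool sums were not tested.

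**Figure D3:**
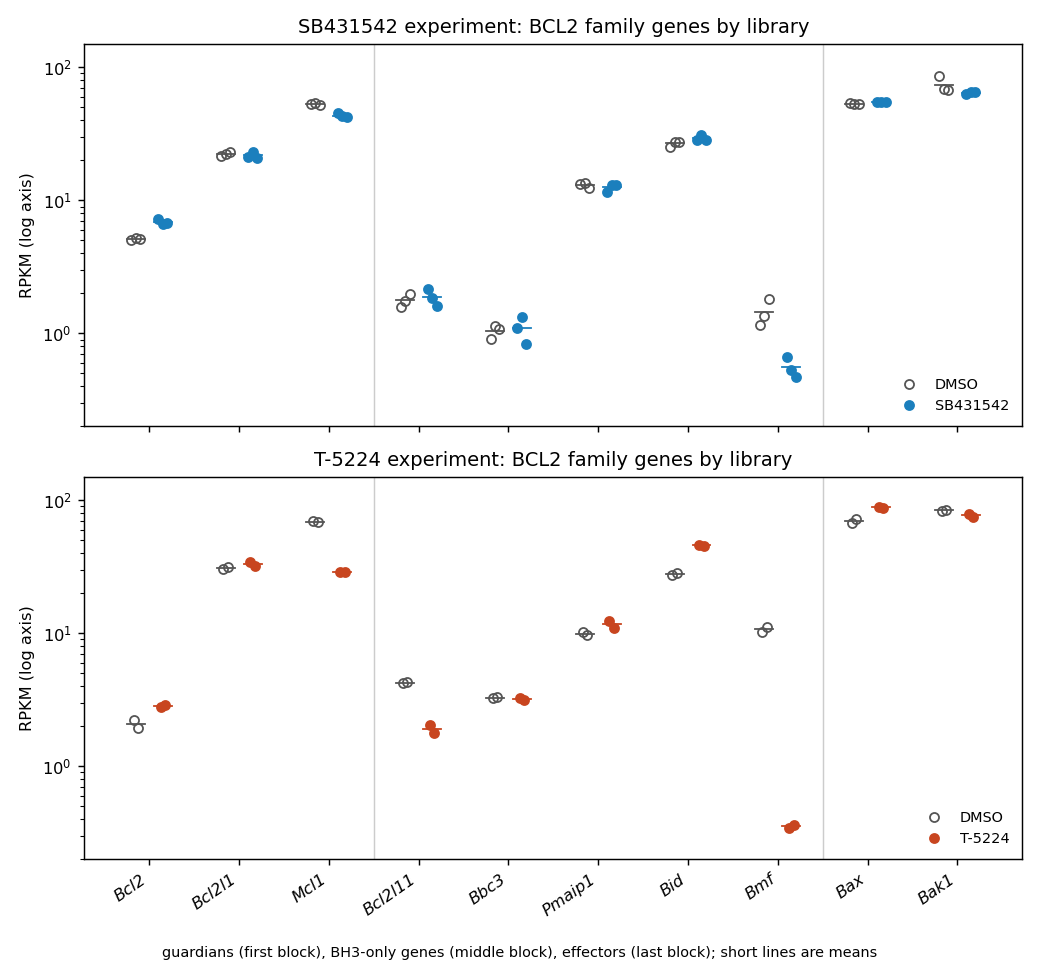
RPKM of the 10 genes in every library on a log axis, with guardians, BH3-only genes and effectors in blocks from left to right; open circles are DMSO libraries, filled circles treated ones, and short lines group means. In the T-5224 panel Bmf falls from above 10 RPKM to 0.340 and 0.364, and the first DMSO library of the SB431542 panel stands out at Bak1 with 85.9 RPKM.

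With T-5224, neither effector moved as much as Bmf, Mcl1, Bcl2l11 or Bid. Bax (chromosome 7, 52717065 to 52722268), the effector that waits in the cytosol, read 67.4 and 71.8 RPKM with DMSO and 89.1 and 87.1 with T-5224. Both treated libraries were above both controls, and the mean rose by 26.5% (log2 fold change 0.34, SE 0.05, 95% interval 0.22 to 0.46, limma adjusted p = 0.000135). With SB431542 it read 54.9, 54.6 and 54.9 RPKM against 53.7, 52.9 and 53.5 with DMSO. The groups did not overlap, but the log2 fold change of 0.04 (95% interval -0.07 to 0.14, limma adjusted p = 0.575) did not pass the test. Neither effector passed at an unadjusted p under 0.05 in limma, beside 3912 of the 10842 genes tested that did.

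Bak1 (chromosome 17, 27156755 to 27165954), the effector that resides in the mitochondrial membrane, had the highest level of all members in every DMSO group. It read 83.4 and 84.0 RPKM with DMSO and 78.3 and 75.3 with T-5224, and the treated libraries were 8.21% lower on average. The log2 fold change of -0.12 (SE 0.05, 95% interval -0.24 to -0.01, limma adjusted p = 0.0462) only just passed. It was lost without each of the libraries in turn, namely DMSO replicate 1 (-0.13, adjusted p = 0.108), DMSO replicate 2 (-0.12, 0.145), T-5224 replicate 1 (-0.15, 0.0606) and T-5224 replicate 2 (-0.10, 0.216), with an adjusted p of 0.000537 to 0.216 over all alternatives. In the SB431542 experiment, Bak1 read 85.9, 68.5 and 67.6 RPKM with DMSO and 63.4, 65.3 and 64.8 with the inhibitor. The log2 fold change of -0.19 did not pass (95% interval -0.40 to 0.03, limma adjusted p = 0.191), and without the first DMSO library, the one that stood apart, it was -0.08 (adjusted p = 0.0990, within a range of 0.0990 to 0.369).

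Bak1 was above Bax with DMSO and Bax above Bak1 with T-5224: the ratio of Bax to Bak1 was 0.832 ± 0.0326 and 1.15 ± 0.0128 (SD, n = 2), and it was 0.730 ± 0.0909 with DMSO and 0.850 ± 0.0150 with SB431542 (SD, n = 3). The summed RPKM of Bax and Bak1 was 153 ± 3.57 with DMSO and 165 ± 3.55 with T-5224. Family genes outside the members were left out, so this sum does not stand for every effector-like gene. It leaves out Bok, which fell from 47.5 ± 0.520 RPKM with DMSO to 34.8 ± 3.05 with T-5224. The log2 fold change of Bok was -0.45 (limma adjusted p = 6.75e-05). The sum of Bax and Bak1 exceeded that of Mcl1, Bcl2l1 and Bcl2 in every group, by RPKM.

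By level, the members spanned a wide range in each group, compared per length. With DMSO in the SB431542 experiment the order was Bak1 (74.0 RPKM), Bax (53.4), Mcl1 (53.1), Bid (26.8), Bcl2l1 (22.3), Pmaip1 (13.1), Bcl2 (5.12), Bcl2l11 (1.78), Bmf (1.44) and Bbc3 (1.04), where Bax and Mcl1, and Bcl2l11 and Bmf, overlapped with their neighbor. With DMSO in the T-5224 experiment, Bcl2l1 (31.0) stood above Bid (27.9), Bmf (10.7) above Pmaip1 (9.90), and Bcl2 (2.09) was last, again with Bax and Mcl1 overlapping. The levels of Bmf, Bcl2l11 (1.78 against 4.24) and Bbc3 (1.04 against 3.28) were thus lower in the SB431542 experiment's controls, and that of Bcl2 higher, although all controls had the same treatment by their labels; differences between the tables may come from how each was made and were not tested. With T-5224, Bax (88.1) led Bak1 (76.8), Bid (45.8), Bcl2l1 (33.2) and Mcl1 (29.0), and Bmf (0.352) was last. With SB431542 only the lowest places changed, Bmf (0.555) falling under Bbc3 (1.09).

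Other genes of the apoptotic machinery were counted in lists, and the counts are to be read beside those of genes at large. Of all genes tested, 39.4% were lower and 40.3% higher with T-5224, so that most genes at large were called. With SB431542 10.0% were lower and 10.2% higher. Of 15 other BCL2 family genes, 7 passed the filter, and with T-5224 5 were lower and 1 higher (median log2 fold change -0.47, against 0.00 for all genes tested). The lower ones were led by Bnip3 (29.8 ± 2.34 to 5.16 ± 0.325 RPKM, log2 fold change -2.42) and Bnip3l (15.4 ± 1.48 to 5.97 ± 0.361, -1.29), which act mainly in the removal of mitochondria, followed by Bcl2l13 (-0.60) and the BH3-only gene Bad (-0.47). The higher one was Bcl2l2, a further guardian (5.93 ± 0.463 to 11.9 ± 1.06 RPKM, log2 fold change 0.95, limma adjusted p = 1.28e-06). With SB431542, 0 of 7 passed in limma, and 1 did at an unadjusted p under 0.05, beside 3912 of the 10842 genes tested.

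Downstream of the effectors, 12 of 13 genes of the apoptosome and caspases passed the filter. With T-5224, 5 were lower and 3 higher (median -0.31), beside 39.4% and 40.3% of all genes. The executioner Casp6 fell most (16.3 ± 0.0354 to 5.37 ± 0.00495 RPKM, log2 fold change -1.52), then Aifm1 (-0.85), Apaf1, the scaffold of the apoptosome (-0.66), and Dffa (-0.62), while Diablo (0.39) and Endog (0.31) were among those that rose. With SB431542, Casp6 was lower (-0.28, limma adjusted p = 0.0308). Of 4 tested inhibitor of apoptosis genes, Birc5 (survivin, which also acts in mitosis) was higher with both inhibitors (0.38 with SB431542, 1.32 with T-5224), and Xiap (-0.60) and Birc6 (-0.33) were lower with T-5224. Cytochrome c (Cycs) did not pass with either, and its DMSO level of 83.9 RPKM in the SB431542 experiment and 1.79 in the T-5224 experiment is uncertain, since a gene with near-identical copies can lose or gain reads in counting.

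The death receptor arm feeds into Bid. With T-5224, 7 of its 11 genes had a mean of at least 1 RPKM in both groups. Of these 4 were higher and 3 lower (median 0.19), beside 4133 and 3905 of the 10208 genes at that level. Up over 2-fold were 2, beside 966 of those genes. These 2 were Tnfrsf10b, a TRAIL receptor, which went from 3.60 ± 0.205 to 9.61 ± 0.535 RPKM (log2 fold change 1.30), and Tnfrsf1a, from 45.6 ± 0.184 to 102 ± 0.513 (1.15). Lower were Cflar, which blocks caspase-8 (-0.64), Tradd (-0.64) and Casp8 itself (-0.49). Fas (0.364 ± 0.0792 RPKM with DMSO, 5.14 ± 0.0764 with T-5224) and Tnf (0.278 ± 0.127 and 2.72 ± 0.320) passed the filter only through the T-5224 libraries, and had to differ to be tested, so their values are given as description. With SB431542, beside 10.2% of all genes higher and 10.0% lower, 1 of 7 tested was higher (Tnfrsf1a, 0.23, limma adjusted p = 0.0382) and 0 were lower.

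Transcription factors known to act on BH3-only genes were also measured. With T-5224, of 10 with a mean of at least 1 RPKM in both groups 6 were higher and 3 lower (median 0.29), beside 4133 and 3905 of the 10208 genes at that level. The higher ones were led by Ddit3 (19.4 ± 1.98 to 574 ± 4.67 RPKM, log2 fold change 4.85) and Atf4 (46.1 ± 1.39 to 533 ± 16.7, 3.52), both of the stress response, then Myc (1.18) and Egr1 (0.82). The lower ones were Foxo1 (-0.91), Trp63 (-0.59) and Foxo4 (-0.36). Trp73 read 7.25 ± 0.856 RPKM with DMSO and 0.0440 ± 0.0339 with T-5224, and since it passed the filter through its DMSO libraries alone this is given as description. With SB431542, of 11 tested 3 were higher, namely Atf4 (0.55), Trp73 (0.38) and E2f1 (0.28), and 2 lower, Foxo1 (-0.29) and Jun (-0.17). Of all genes tested, 10.2% were higher and 10.0% lower. Foxo1 was thus lower and Atf4 higher with both inhibitors.

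Of p53 and its targets outside the family, all 14 tested passed with T-5224, 6 higher and 8 lower (median -0.72), beside 40.3% and 39.4% of all genes tested. Higher were Gadd45a (9.04 ± 0.841 to 180 ± 0.0912 RPKM, log2 fold change 4.25), Plk2 (1.38), Trp53 itself (70.0 ± 1.63 to 177 ± 6.55 RPKM, 1.33) and Sesn2 (1.19), and lower were Trp53inp1 (-3.12), Sesn1 (-2.15), Ccng1 (-1.08) and Btg2 (-1.04). The list moved in both directions, and of the targets within the family Pmaip1 was higher (0.22), Bax was higher (0.34) and Bbc3 read -0.02. With SB431542, of 14 tested 3 were lower, Trp53inp1 (8.81 ± 0.202 to 3.97 ± 0.734 RPKM, -1.07), Cdkn1a (-0.63) and Perp (-0.33), and Aen was higher (0.30). Of all genes tested, 10.0% were lower and 10.2% higher. Of 4 tested genes for turnover of MCL1 protein, the ligase genes Fbxw7 (-0.76) and Btrc (-0.57) were lower and Huwe1, the ligase also called MULE, higher (0.96) with T-5224, and Fbxw7 was lower with SB431542 (-0.39, limma adjusted p = 0.0221).

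**Figure D4:**
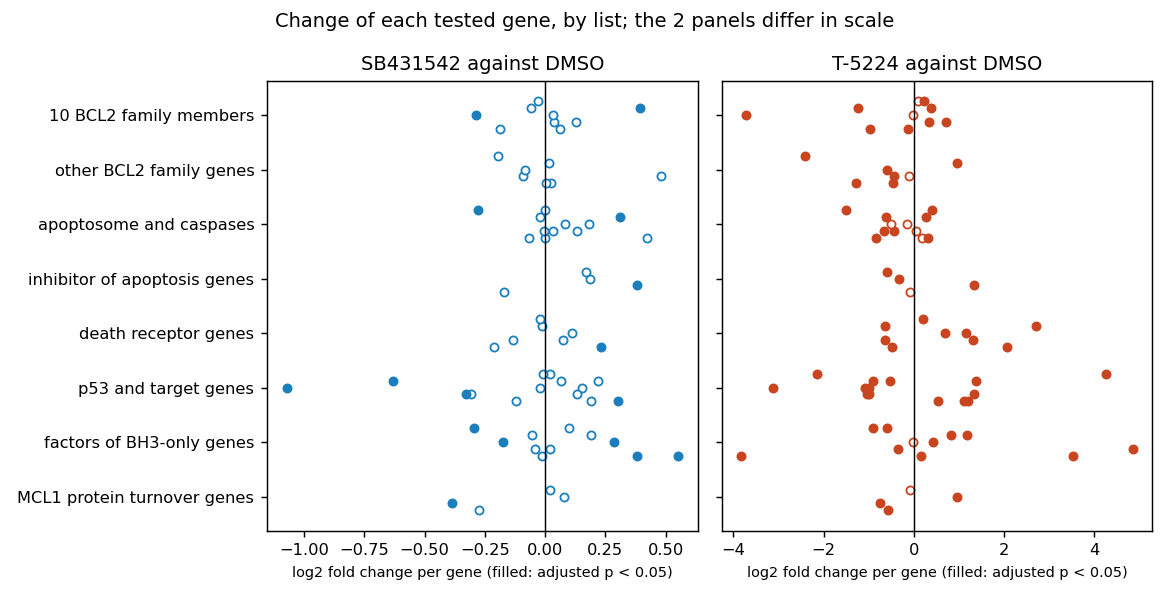
Log2 fold change of each tested gene in 8 lists, with SB431542 on the left and T-5224 on the right, each on its own scale and against its own DMSO libraries; filled points have an adjusted p under 0.05 in limma. With SB431542 most points are open and lie between -0.39 and 0.55, apart from Cdkn1a at -0.63 and Trp53inp1 at -1.07, and with T-5224 the points run from -3.83 to 4.85 (Ddit3).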

How the data were processed

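Libraries were TruSeq Stranded mRNA on an Illumina HiSeq2000, from biological samples per the study. The authors aligned reads to mm9 with TopHat 2.1.1 and deposited RPKM per gene from HOMER 4.10, 1 table an experiment. The annotation, the handling of reads with several matches and the use of strand in counting are not given in the sources used here, nor whether they were alike for both tables, so levels are compared within a table. RPKM tables were fitted separately with limma 3.58.1 (R 4.3.3) on log2(RPKM + 0.5), trend on, no covariates, for genes averaging 1 RPKM or more, with Benjamini-Hochberg adjustment over 10842 and 10809 genes. A call is an adjusted p under 0.05. Fold changes are on that log scale and are understated for low genes. The 22 and 23 rows with a date for a name were dropped, and 0 columns left out. Columns of the T-5224 experiment's DMSO libraries carry numbers other than the labels' and were used by group. Depth came from low values of short genes, all whole reads within 0.05 of a read. Reads per gene were estimated from RPKM, that depth and the longest annotated transcript on mm9. The lengths used by the authors may differ, so these reads and their counting errors are approximate. With 2 or 3 libraries a group, precision is limited, and counting errors cover counting only. The fit was tested on simulated data. Members and lists were chosen with earlier results of these data known. All members are named. Of each other list at most 4 called genes each way are named, those with the largest changes, apart from Bok, which is named beside the effector sum. Gli1 and Pmepa1 serve as treatment checks. Alternatives were 2 pseudocounts, 2 filters, 2 scalings, no trend, a replicate block and leaving out each library. Protein sequences were not used here, and a gene of the caspase list is not reported here.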

Additional observations from a re-analysis of the deposited data

How the results depend on the processing

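Without the filter on low values, 2 members were lower with SB431542 (Bmf and Mcl1) in place of 1. Leaving out 1 library at a time gave 1 to 2 lower members: without SB431542 replicate 1 Bmf joined Mcl1, and without replicate 2 or 3 Bmf stood alone, in each case because dropping a low library lifted its mean over the filter, so these calls say nothing of its fall. Bbc3 with SB431542 changed sign when 1 library was left out, its log2 fold change ranging from -0.073 to 0.15 (-0.026 without DMSO replicate 1), as did Bcl2l11 (-0.024 to 0.14). Bbc3 with T-5224 changed sign under quantile normalization (0.066, adjusted p = 0.477). None of these passed the test, and the cause was not tested. Bak1 with T-5224 was lost without the mean-variance trend (adjusted p = 0.116). With a mean RPKM of at least 5, Bcl2, Bcl2l11 and Bbc3 were not tested with T-5224. Mcl1, Bmf, Bid, Bax and Bcl2l11 kept direction and call with T-5224 under every alternative that tested them, as did Bcl2 with SB431542.

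Whether the replicate numbers of the SB431542 experiment pair the samples is not stated in the labels. Same-numbered deviations correlated at -0.148, 0.151 and -0.0949, which with 3 libraries a group cannot settle the question. With a replicate block, 1 member was lower (Mcl1, adjusted p = 0.0411) and 1 higher (Bcl2, adjusted p = 0.0307), and no call on a member changed. No such fit was made for T-5224, whose labels share no numbers with its controls. Leaving out a T-5224 experiment library leaves 1 sample in an arm, taken to vary like the others. With 2 or 3 libraries a group, fold changes of low members (Bbc3, Bcl2l11, Bmf) are least precise.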

Other observations

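Routes of cell death outside the BCL2 family were measured in the same libraries. Of 12 genes of necroptosis and pyroptosis, 4 had a mean of at least 1 RPKM in both groups of the T-5224 experiment. Of these 1 was higher and 2 lower (median log2 fold change -0.17), beside 4133 and 3905 of the 10208 genes at that level. Mlkl, the pore former of necroptosis, went from 10.9 ± 0.689 to 26.9 ± 0.501 RPKM (1.26, limma adjusted p = 1.32e-08), while Il18 (-1.13) and Casp1 (-0.41) were lower. Casp4 (0.0440 ± 0.0622 RPKM with DMSO, 2.02 ± 0.315 with T-5224) and Ripk3 (0.815 ± 0.181 and 1.47 ± 0.290) passed the filter only through the T-5224 libraries, and are given as description. With them the median was 0.33. With SB431542, Mlkl was the 1 gene of 4 tested that passed (0.32, limma adjusted p = 0.0470), beside 10.2% of all genes tested that were higher and 10.0% that were lower.

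Of 12 ferroptosis genes, 11 were tested in each experiment. With T-5224, 9 were higher and 2 lower (median 1.44), beside 40.3% and 39.4% of all genes tested, and 6 were up over 2-fold, beside 10.4%. Of these 9, Gpx4 is uncertain, since its DMSO level was 81.5 RPKM in the SB431542 experiment and 7.72 in the T-5224 experiment. The largest rises were those of the cystine transporter subunits Slc3a2 (104 ± 1.54 to 581 ± 19.3 RPKM, 2.47) and Slc7a11 (5.06 ± 0.379 to 26.0 ± 0.375, 2.25), of the transferrin receptor Tfrc (13.3 ± 1.09 to 70.5 ± 3.63, 2.36) and of ferritin heavy chain Fth1 (811 ± 2.11 to 3544 ± 84.8, 2.13), which has many processed copies and is uncertain. Lpcat3 (-0.77) and Ncoa4 (-0.42) were lower. With SB431542, Tfrc (0.69, limma adjusted p = 0.00491) and Fth1 (0.47) were higher, and 0 were lower, beside 10.2% and 10.0% of all genes tested. Neither list was compared with the BCL2 family by a test.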
